A study of Arabidopsis thaliana with 8 samples.

Results

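The genes described here encode factors that remove, bind or limit R-loops in *Arabidopsis thaliana*. The 9 members were chosen by locus identifier out of 27444 protein-coding genes on the nuclear chromosomes, for what their products are known to do. Earlier results of these data were known when they were chosen. The members are the RNase H1 genes *RNH1A*, *RNH1B* and *RNH1C*, and the Alba-domain genes *ALBA1* and *ALBA2*. The others are the topoisomerase I genes *TOP1A* and *TOP1B*, and the THO/TREX genes *HPR1* and *TEX1*. R-loops were mapped by DRIP-seq, in which the S9.6 antibody pulls down DNA:RNA hybrids before sequencing. The material was bulk 10-day-old seedlings of Col-0, the wild type, and of *ndx1-4*, in which a T-DNA interrupts *NDX* (NODULIN HOMEOBOX) in the Col-0 background. For each genotype 4 libraries were made: 1 of input DNA, 2 of S9.6 immunoprecipitates (IP), and 1 of an IP with RNase H treatment. The measurements used here were 1 list of peaks per genotype, so no value has an error between replicates and no test was made between the genotypes. A peak list holds no expression level, so neither the mutation nor the tissue could be checked from marker genes.

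An R-loop forms when a transcript pairs with its template DNA strand and leaves the other DNA strand unpaired. RNase H1 enzymes degrade the RNA of such hybrids, topoisomerase I removes the negative supercoils behind RNA polymerase that favour strand invasion, and the THO/TREX complex packages nascent RNA for export and so keeps it from the template. Alba proteins bind nucleic acids, and in *Arabidopsis* ALBA1 and ALBA2 form a dimer that binds genic R-loops. The peak lists therefore answer a simple question about these factors: whether R-loops were called at the genes that encode them, and whether the calls stood at the same places in *ndx1-4*.

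A peak was counted for a gene where it shared at least 1 base with the gene body or with the 1000 bases on either side, the window. In Col-0, 6 of the 9 members had such a peak (66.7%, 95% Wilson interval 35.4 to 87.9%), against 44.4% of all protein-coding genes. In *ndx1-4*, 8 members had one (88.9%, 56.5 to 98.0%), against 42.6%. The 6 members called in Col-0 were also called in *ndx1-4*, where 40.4% of all genes had a peak in both lists. These were *RNH1B*, *RNH1C*, *TOP1A*, *TOP1B*, *HPR1* and *TEX1*. *ALBA1* and *ALBA2* had a peak in *ndx1-4* only (22.2%, 6.32 to 54.7%), against 2.23% of all genes. No member had a peak in Col-0 only, against 3.99% of all genes, and 1 member, *RNH1A*, had none in either list, against 53.4%. Each list held 8 peaks at the members, and 6 of the 8 in each shared bases with a peak of the other list. Set together they made 10 separate places, 6 found in both lists, 2 in Col-0 only and 2 in *ndx1-4* only. In the whole Col-0 list, 11.9% of entries shared no base with the other list. In the whole *ndx1-4* list the share was 7.44%. At 33 related genes, described below, it was 4 of 18 peaks in each list (22.2%). Whether the members differ from these shares was not tested.

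**Figure D1:**
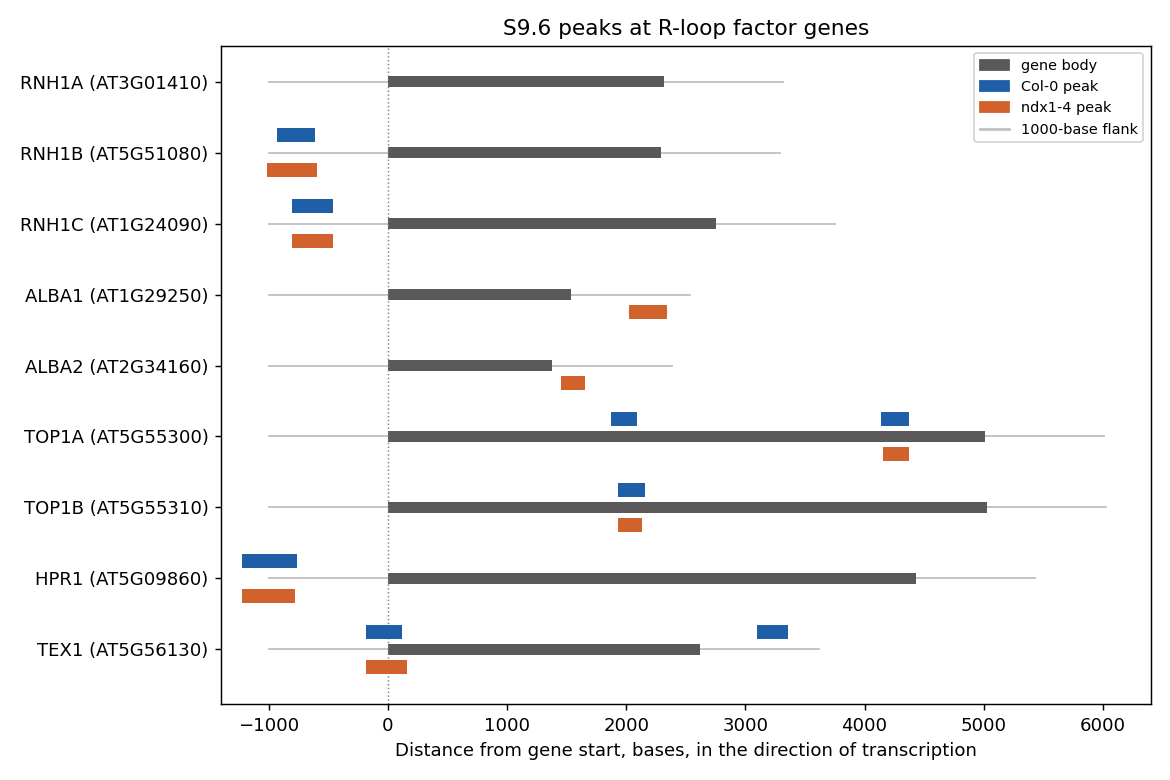
Peaks (Col-0 above, *ndx1-4* below each gene) at the 9 genes, drawn to scale as distance in bases from the gene start in the direction of transcription, with the gene body as a dark bar and the 1000-base flanks as a thin line. The 3 genes with a peak in the body in both lists are *TOP1A*, *TOP1B* and *TEX1*, the peaks of *ALBA1* and *ALBA2* lie downstream in *ndx1-4* only, and *RNH1A* has none.

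Of the 10 places at the members, 4 were inside a member or over its start and 6 were outside. Of those 6, 4 lay wholly inside another protein-coding gene. The window takes in the flanks on both sides of a gene, so places outside genes are counted by design. The same split over the windows of all genes is not given here, so an excess outside the member genes was not tested. Peaks in the lists carry no strand, so which gene's RNA a peak between genes comes from was not measured. Counting gene bodies alone left 3 members in each list and the same 3 in both (33.3%, 12.1 to 64.6%), against 29.6% of all genes in the Col-0 list and 28.2% in the *ndx1-4* list, with 26.6% in both. Upstream flanks held a peak in both lists at 4 members (*RNH1B*, *RNH1C*, *HPR1* and *TEX1*; 44.4%, 18.9 to 73.3%), against 17.3% of all genes. Downstream flanks held a peak in both lists at 0 members (0 to 29.9%), against 13.9%. A gene start lay under a peak in both lists at 1 member, *TEX1* (11.1%, 1.99 to 43.5%), against 8.66%. The share for bodies and starts was thus close to that of all genes, and with 9 genes each interval is wide.

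**Figure D2:**
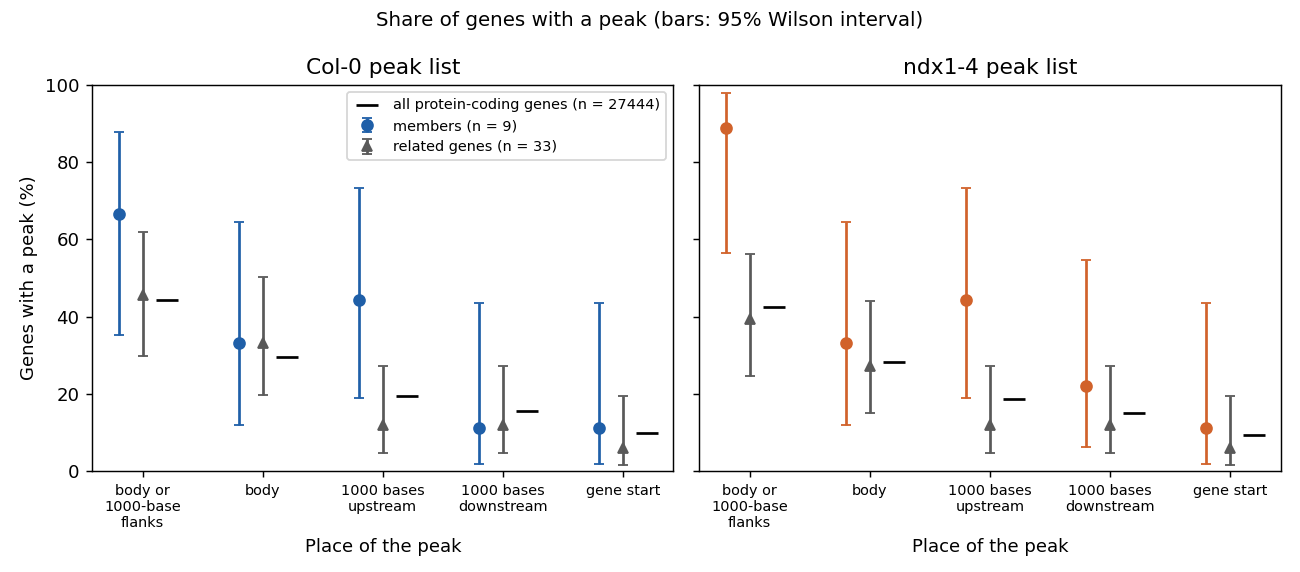
Share of genes with a peak (percent) in each place, for the 9 members (circles), 33 related genes (triangles) and all 27444 protein-coding genes (dashes), in Col-0 (left) and *ndx1-4* (right), with 95% Wilson intervals that cover counting error only. For the body the members stand at 33.3% in both lists, beside 29.6% and 28.2% of all genes.

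The stretches of DNA that the results turn on are the matching peaks of the topoisomerase I pair, the shared promoter under the *TEX1* peak, the *TEX1* downstream peak found in Col-0 only, and the *ALBA1* peak found in *ndx1-4* only. All were read from the RefSeq TAIR10.1 genome and are written 5′ to 3′. The first pair shows that the peak called in *TOP1A* in Col-0 only (chr5:22427421-22427640) and the *TOP1B* peak (chr5:22432981-22433200, Col-0 edges) are the same part of the duplicated gene. Both are written on the minus strand, which is the coding strand of both genes, with capitals at the bases that are identical in the aligned paralog.
TOP1A: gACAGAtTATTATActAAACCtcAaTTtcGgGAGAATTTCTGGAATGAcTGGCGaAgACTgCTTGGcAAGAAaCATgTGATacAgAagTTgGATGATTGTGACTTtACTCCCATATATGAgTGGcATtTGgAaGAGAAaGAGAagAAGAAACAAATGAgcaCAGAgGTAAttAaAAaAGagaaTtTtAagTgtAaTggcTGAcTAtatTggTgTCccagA
TOP1B: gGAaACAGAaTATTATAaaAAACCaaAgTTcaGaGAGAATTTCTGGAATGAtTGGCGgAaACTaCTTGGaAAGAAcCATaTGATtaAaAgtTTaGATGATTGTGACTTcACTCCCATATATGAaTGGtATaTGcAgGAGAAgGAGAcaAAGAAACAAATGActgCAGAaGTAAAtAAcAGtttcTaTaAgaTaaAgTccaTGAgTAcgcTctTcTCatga
The bases between the start of *TEX1* and the start of its divergent neighbour AT5G56140 (chr5:22725100-22725237) lay under the peak in both lists. They are shown on the minus strand, that of *TEX1*. Capitals mark the longest run of pyrimidines and the first of the longest runs of purines, as a later run (aggaag) is equally long.
TEX1 to AT5G56140: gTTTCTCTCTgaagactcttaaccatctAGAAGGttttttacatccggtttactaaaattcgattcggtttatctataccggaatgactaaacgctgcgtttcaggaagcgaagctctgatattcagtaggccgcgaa
The Col-0 peak downstream of *TEX1* (chr5:22721741-22722000) is coding sequence of the convergent gene AT5G56120. It is shown on the plus strand, with capitals at the longest run of purines and the longest run of pyrimidines.
TEX1 downstream: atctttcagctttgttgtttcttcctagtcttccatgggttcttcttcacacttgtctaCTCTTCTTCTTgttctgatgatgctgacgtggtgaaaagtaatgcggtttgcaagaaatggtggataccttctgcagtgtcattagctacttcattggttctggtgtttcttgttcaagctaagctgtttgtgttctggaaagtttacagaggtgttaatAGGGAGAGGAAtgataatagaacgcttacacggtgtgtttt
The *ndx1-4* peak downstream of *ALBA1* is shown over its central 300 bases (chr1:10222471-10222770) on the minus strand, that of *ALBA1*, with capitals at the arms of its longest exact inverted repeat.
ALBA1 downstream: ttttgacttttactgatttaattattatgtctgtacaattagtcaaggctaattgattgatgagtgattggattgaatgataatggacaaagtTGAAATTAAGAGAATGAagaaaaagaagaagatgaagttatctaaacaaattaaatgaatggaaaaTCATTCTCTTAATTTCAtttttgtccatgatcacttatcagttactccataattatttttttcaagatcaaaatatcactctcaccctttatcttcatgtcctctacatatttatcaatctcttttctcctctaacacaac

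The RNase H1 genes differed among themselves. *RNH1A* (AT3G01410, chr3:153343-155657, minus strand) encodes the nuclear enzyme. It had no peak in its body or window in either list. The nearest peak lay 3062 bases downstream in Col-0 (150021 to 150280, score 95) and 3082 bases downstream in *ndx1-4* (150021 to 150260, score 87). The score is a whole number deposited with each peak, whose unit is not stated, so it was used only to rank peaks within a list. *RNH1A* was thus the only one of the 9 members with no peak within 1000 bases in either list.

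*RNH1B* (AT5G51080, chr5:20768795-20771085, minus strand) encodes the mitochondrial enzyme. Its peak lay upstream, 615 bases from the gene start in Col-0 (20771701 to 20772020, 320 bases) and 595 bases in *ndx1-4* (20771681 to 20772100, 420 bases). The *ndx1-4* peak was 100 bases longer and contained all 320 bases of the Col-0 peak, with 15 bases beyond the window. In Col-0, 49.2% of the peaks of the list had a lower score than this one, and in *ndx1-4* 57.3%. This percent is called the score rank below. The peak did not lie in a protein-coding gene. It covered the start of the lncRNA gene AT5G07715 (20771575 to 20771890, same strand as *RNH1B*), reaching from 130 bases before that start to 189 bases past it in Col-0 and from 210 before to 209 past in *ndx1-4*. Of the peak, 59.4% lay in the lncRNA gene in Col-0 and 50.0% in *ndx1-4*. A second noncoding gene, AT5G00640, annotated as miscellaneous RNA on the same strand, overlapped 51.9% and 44.3% of the peak.

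*RNH1C* (AT1G24090, chr1:8520443-8523193, plus strand) encodes the chloroplast enzyme. Its peak had the same edges in both lists (chr1:8519641-8519980, 340 bases), 462 bases upstream of the gene start. The score rank was 67.1% in Col-0 and 69.9% in *ndx1-4*. All of this peak lay in the first bases of *CSLA10* (AT1G24070, 8516166 to 8519984), a cellulose synthase-like gene read in the opposite direction, whose start is 458 bases from that of *RNH1C*. It ran from 4 to 343 bases past the *CSLA10* start, over 246 bases of untranslated region (UTR), 66 bases of coding sequence and 28 bases of intron. No RNase H1 gene had a peak in its own body in either list. The same held for 68.8% of all protein-coding genes and for 21 of 33 other genes of the same pathways.

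The Alba genes were the members that had a call in *ndx1-4* alone. *ALBA1* (AT1G29250, chr1:10223266-10224799, minus strand) had 1 *ndx1-4* peak of 320 bases (10222461 to 10222780), 485 bases past its end and in no annotated gene. Its score was 71 and its score rank 14.3%. The nearest Col-0 peak to it lay 4680 bases away (10227461 to 10227680), 2661 bases upstream of *ALBA1*. The peak was rich in A and T: its GC content was 27.8%, the lowest of the peaks at the members and below the lower quartile of the whole *ndx1-4* list (31.5%, median 35.0%). The inverted repeat marked in the sequence above has arms of 17 bases with 49 bases between them. A repeat at least that long was found in 57 of the 13549 *ndx1-4* peaks (0.421%), and the median was 8 bases. The repeat was looked at after the sequence had been seen, and at the other members the longest repeat in a peak was 6 to 12 bases.

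*ALBA2* (AT2G34160, chr2:14426108-14427488, plus strand) had 1 *ndx1-4* peak of 200 bases (14427561 to 14427760), 72 bases past its end. That is the shortest length in the lists, shared by 9.76% of *ndx1-4* peaks. The score was 76 and the score rank 22.4%. All 200 bases lay in the UTR of AT2G34170 (14427509 to 14430860), a gene of unknown function that starts 20 bases after *ALBA2* ends, on the same strand. The nearest Col-0 peak lay 2760 bases further on (14430521 to 14431100), 3032 bases from *ALBA2*. Both Alba peaks were therefore low in their list and outside the gene body. Most peaks of such scores had a partner: 84.1% of *ndx1-4* peaks in the score decile of the *ALBA1* peak and 88.3% in that of the *ALBA2* peak overlapped a Col-0 peak. Over the whole *ndx1-4* list 7.44% of peaks had none.

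The topoisomerase I genes carried their peaks in the gene body. *TOP1A* (AT5G55300, also *TOP1ALPHA*, chr5:22424502-22429514) and *TOP1B* (AT5G55310, *TOP1BETA*, chr5:22430105-22435134) are a tandem pair on the minus strand with 590 bases between them. *TOP1A* had a peak in both lists near its end, of 240 bases in Col-0 (22425141 to 22425380) and 220 bases in *ndx1-4* (22425141 to 22425360), centred at 84.8% and 85.0% of the gene length. It held 129 bases of coding sequence in both lists and 111 or 91 bases of intron. The score rank was 28.0% in Col-0 and 20.9% in *ndx1-4*. *TOP1B* had a peak in both lists earlier in the gene, of 220 bases in Col-0 (22432981 to 22433200) and 200 bases in *ndx1-4* (22433001 to 22433200). It started 1934 bases past the gene start and held 169 bases of coding sequence. Its score was 66 in both lists and its score rank 6.21% in Col-0 and 7.16% in *ndx1-4*.

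*TOP1A* also had a peak in Col-0 only, of 220 bases, 1874 to 2093 bases past its start, with 166 bases of coding sequence and 54 bases of intron. Its score of 53 was the lowest in the Col-0 list, held by 5 of 14180 peaks. Of the Col-0 peaks in the same score decile, 64.5% had a partner in *ndx1-4*. The nearest *ndx1-4* peak was the one near the end of *TOP1A*, 2060 bases away. This place corresponds to the peak of *TOP1B*. Aligned over the whole gene, the pair were identical at 68.2% of aligned bases (3187 of 4672), and over coding bases at 74.4% (2041 of 2744). In that alignment 217 of the 218 aligned bases of the Col-0-only *TOP1A* peak (99.5%) lay opposite the Col-0 peak of *TOP1B*, and 197 (90.4%) opposite the *ndx1-4* peak. Within this stretch 155 of 218 bases were identical (71.1%), with a longest identical run of 17. The other *TOP1A* peak had 0 bases opposite a *TOP1B* peak. No word of 31 bases in any of these peaks occurred more than once in the genome, so the copies are distinguishable at that length, while the read length is not given in the sources used here.

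**Figure D3:**
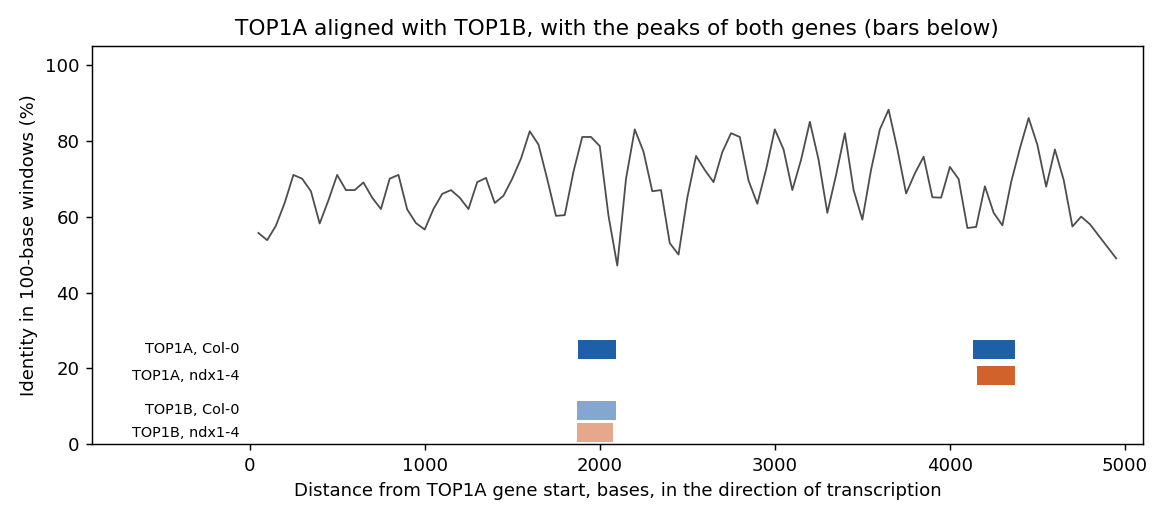
Identity of *TOP1A* to *TOP1B* (percent, in 100-base windows of the alignment) against the distance in bases from the *TOP1A* start, with the peaks of each gene and list as bars placed at the aligned position. The bar of the *TOP1A* peak found in Col-0 only stands over those of *TOP1B* (217 of 218 aligned bases), and the peak near the end of *TOP1A* has no bar of *TOP1B* beneath it.

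Both matched stretches held more purines than pyrimidines on the coding strand, the strand with the sequence of the RNA. Purines made up 61.4% of the Col-0-only *TOP1A* peak and 61.4% of the *TOP1B* peak in Col-0. In Col-0 the excess was 22.7% of bases in both, inside the quartiles of all Col-0 peaks for the difference in either direction (10.0 to 24.1%, median 17.5%). In the *ndx1-4* peak of *TOP1B* it was 27.0%, above the upper quartile of that list (24.0%). The longest run of purines was 22 bases in the *TOP1A* peak and 12 in the Col-0 peak of *TOP1B*. Over all Col-0 peaks the longest run of purines or pyrimidines had a median of 16 bases and quartiles of 12 and 21. The *TOP1A* run was thus above the upper quartile and the *TOP1B* run at the lower. The GC skew of the *TOP1A* peak, the excess of G over C as a percent of their sum, was 31.7%. That of the *TOP1B* peak was 20.0%. The peak near the end of *TOP1A* was less asymmetric, with 52.5% purines and a skew of 6.52% in Col-0.

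Of the THO/TREX genes, *HPR1* (AT5G09860, *THO1*, chr5:3066562-3070989, plus strand) encodes a core THO subunit. Its peak lay upstream, 761 bases from the gene start in Col-0 (3065341 to 3065800, 460 bases) and 781 bases in *ndx1-4* (3065341 to 3065780, 440 bases). The outer 221 bases were beyond the window, which left 239 bases inside in Col-0 and 219 in *ndx1-4*. Where at least 50% of a peak had to lie in the window, *HPR1* kept its Col-0 call and lost that in *ndx1-4*, although the peaks differ at 1 edge by 20 bases. The score rank was 13.9% in Col-0 and 25.7% in *ndx1-4*. Every base lay in the UTR of AT5G09850 (3062651 to 3065889), which encodes a protein of the TFIIS elongation factor family and is read in the opposite direction, with 672 bases between the genes. On the strand of *HPR1* the peak had 61.5% purines and a GC skew of 30.6% in Col-0. On the strand of AT5G09850, in whose UTR it lay, both biases run the other way. The difference between purines and pyrimidines was 23.0% of bases, inside the quartiles of all Col-0 peaks (10.0 to 24.1%).

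*TEX1* (AT5G56130, *THO3*, chr5:22722482-22725099, minus strand), which encodes the WD40 subunit of THO, had the highest-ranked peaks of the members. The peak over its start spanned 300 bases in Col-0 (22724981 to 22725280) and 340 bases in *ndx1-4* (22724941 to 22725280). It began 181 bases upstream of the start in both lists and reached 118 bases into the gene in Col-0 and 158 bases in *ndx1-4*, with 66 bases of coding sequence, 34 of UTR and 19 or 59 of intron. The score was 128 in Col-0 and 135 in *ndx1-4*, and the score rank 76.3% and 83.0%. The same peak covered the first 43 bases of AT5G56140 (22725238 to 22728473, plus strand), which encodes an RNA-binding protein with a KH domain. The starts of both genes and the 138 bases between them thus lay under 1 peak in each list.

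The second *TEX1* peak was in Col-0 only, 481 bases past the end of the gene (22721741 to 22722000, 260 bases). It lay wholly in coding sequence of AT5G56120 (22721373 to 22722613), annotated as an RNA polymerase II elongation factor, which converges on *TEX1* and overlaps its end. The score was 110 and the score rank 63.8%. Few peaks of this rank lacked a partner: 1390 of 1409 Col-0 peaks in the same decile (98.7%) overlapped an *ndx1-4* peak. The nearest *ndx1-4* peak lay 2480 bases away (22719001 to 22719260). Of the 4 places found in 1 list only, this was the only one above the median score of its list. The GC content was 40.4%, the highest of the peaks at the members.

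**Figure D4:**
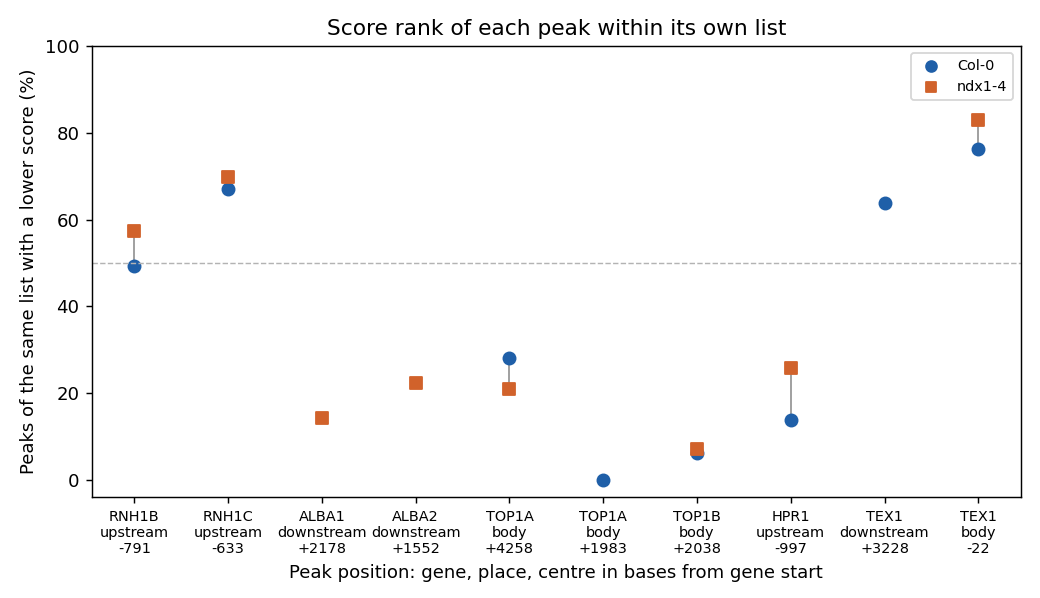
Score rank of each peak at the members, as the percent of peaks of the same list with a lower score (vertical axis), for the 10 places ordered by gene, with circles for Col-0, squares for *ndx1-4* and a line joining peaks that share bases. Places with 1 symbol were called in 1 list only and stand between 0 and 63.8%, and the *TEX1* start peak stands highest at 76.3% and 83.0%.

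Across the 6 places found in both lists, the edges were nearly the same. The *ndx1-4* peak was longer at 2 (*RNH1B* by 100 bases and *TEX1*), shorter at 3 (*TOP1A*, *TOP1B* and *HPR1*, by 20 bases each) and equal at *RNH1C*. The median difference was -10 bases. Every peak start in both lists lay on a 20-base grid, and a difference of 20 bases is 1 step of that grid. The score rank was higher in *ndx1-4* at 5 of the 6, *TOP1A* being the exception, with differences from -7.1 to 11.8 percentage points. At *TOP1B* the difference was 0.95. The same count over all peaks with a partner is not given here, so a rise particular to these genes was not tested. The median score of all peaks was 96 in Col-0 and 93 in *ndx1-4*, so a rank can rise where the score does not. In Col-0 and *ndx1-4* the scores were 96 and 100 at *RNH1B*, 114 and 113 at *RNH1C*, and 81 and 75 at *TOP1A*. At *TOP1B* they were 66 and 66, at *HPR1* 72 and 78, and at *TEX1* 128 and 135. With 1 list per genotype no spread between replicates is known against which to read these differences. Bases under peaks in the 9 windows came to 2139 in Col-0 and 2244 in *ndx1-4*, a ratio of 1.05. With gene bodies alone they were 799 and 579, a ratio of 0.725.

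The peaks at the members were of moderate length. Their lengths ran from 220 to 460 bases in Col-0 (median 280) and from 200 to 440 in *ndx1-4* (median 330), against a median of 340 over all peaks of each list. The median score rank was 38.6% in Col-0, with a range of 0 to 76.3%, and 24.0% in *ndx1-4*, with a range of 7.16 to 83.0%. No peak at a member was in the top score decile of its list. Counting only peaks at or above the median score of their list left 3 members with a peak in each list (33.3%), against 25.7% of all genes in Col-0 and 24.7% in *ndx1-4*. GC content ran from 31.2 to 40.4% in Col-0 and from 27.8 to 39.5% in *ndx1-4*, around the median of 35.0% of all peaks. No peak at a member held a repeated 31-base word, while 26.6% of all Col-0 peaks and 26.5% of all *ndx1-4* peaks held at least 1.

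The members were set beside 33 other genes of the same pathways. A peak in the window was found at 15 of them in Col-0 (45.5%, 29.8 to 62.0%) and at 13 in *ndx1-4* (39.4%, 24.7 to 56.3%). The lists shared 12 of these genes (36.4%, 22.2 to 53.4%). Each share is near that of all genes. In Col-0 the members stood at 66.7% (35.4 to 87.9%), against 44.4% of all genes. In *ndx1-4* the members stood at 88.9% (56.5 to 98.0%), against 42.6% of all genes. With gene bodies alone the *ndx1-4* shares were 33.3% of members and 27.3% of related genes, against 28.2% of all genes. The intervals cover counting error within 1 list only. The difference between members and related genes was not tested. By family, both lists had a peak at 1 of 4 other Alba genes, 0 of 3 subunits of RNase H2, 3 of 4 helicase genes, 4 of 13 other THO/TREX genes and 4 of 9 other topoisomerase genes. *ALBA6* had a peak in its body in both lists, of 420 bases in Col-0 and 460 in *ndx1-4*. Among topoisomerases, *TOP2*, which encodes topoisomerase II, had a peak over its start of 320 bases in both lists, and the gyrase gene *GYRB2* had one of 260 bases in both, besides a body peak of 280 bases in *ndx1-4* only. *THO2*, which encodes another THO subunit, had body peaks of 380 and 200 bases in each list, and *ndx1-4* had a further body peak of 200 bases there with no Col-0 partner. *ALY4*, an RNA export adaptor, had a peak of 500 bases with a score rank of 94.8% in both lists, above any peak at the members. A body peak in both lists was also found at *GYRB1* (240 bases in each), *THO5A* (300 and 360 bases) and the helicase gene *EMB2765* (280 and 300 bases). In all, 8 of the 33 related genes had one (24.2%), against 26.6% of all genes.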

How the data were processed

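DRIP-seq peaks were analysed from 8 libraries of 10-day-old seedlings. The authors deposited 1 peak list per genotype on TAIR10, with a whole-number score per peak (lowest 53) whose unit is not stated. The submitters' processing notes name Bowtie2, SAMtools, Picard, deepTools and MACS2, with no role or version. The calling threshold, the use of the input and RNase H libraries and the pooling of the IP libraries are not given in the sources used here. Read counts and peaks per replicate were not analysed here, so depth is unknown. On the nuclear chromosomes the lists held 14180 (Col-0) and 13549 (*ndx1-4*) peaks. Of these, 11.9% and 7.44% had no partner, a peak of the other list sharing at least 1 base. A list called from a deeper library can hold more peaks, and this cannot be told apart from genotype.

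Members, related genes and features were chosen with earlier results of these data known. All 9 members are named with every peak in their windows, as are neighbours whose body overlaps such a peak. Related genes are given by family, and those with a body peak in both lists may be named. Related genes with a peak lacking a partner were named after their values were seen. Gene models came from RefSeq TAIR10.1, in which 9 of 9 members matched by locus identifier and no peak ran past a chromosome end. Bases were classed as coding sequence, UTR, intron or flank in that order. *TOP1A* and *TOP1B* were aligned globally (match 1, mismatch -1, gap opening -5, gap extension -0.5). Wilson intervals (95%) cover counting error only, and genes are not replicates of a genotype. The alternatives changed the window, the overlap required, the lowest score, the shortest length and the background. The overlap code was tested on simulated data, where 500 of 500 planted genes were found. Python 3.11.15, pandas 2.3.3, numpy 2.4.6, scipy 1.17.1, biopython 1.88 and matplotlib 3.10.9 were used.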

Additional observations from a re-analysis of the deposited data

How the results depend on the processing

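Under 71 alternatives for the 10 results, 25 values stayed within 1.5 times the reported value (or, for shares of all genes, within its interval) and 46 moved further.

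With gene bodies alone the members with a peak were 3 in the Col-0 list, 3 in the *ndx1-4* list and 3 shared by them, with 4 and 3 peaks over 799 and 579 bases, and the shares of all genes were 29.6% and 28.2%. With 500-base flanks the Col-0 list had a peak at 4 members and the *ndx1-4* list at 6, with 4 shared. The bases were then 1037 and 1013 and the shares of all genes 37.6% and 36.0%. With 2000-base flanks the Col-0 list had a peak at 6 members and the *ndx1-4* list at 8, with 6 shared, as reported. The bases were then 3369 and 3429 and the shares 55.4% and 53.4%. Requiring 50% of the peak in the window kept 6 members for the Col-0 list and 7 for the *ndx1-4* list, with 5 shared. The shares of all genes were then 41.8% and 40.2%. Peaks at or above the median score left 3 members in each list and 3 in both, with 4 and 3 peaks over 1220 and 1085 bases, and shares of 25.7% and 24.7%. Peaks of at least 500 bases left 0 members, 0 peaks and 0 bases in each list, so no ratio of bases could be given, and shares of 13.6% and 12.0%. Among genes as long as the members the shares were 47.5% and 45.7%. Leaving out peaks wholly inside another protein-coding gene was chosen after seeing the data. It left 4 members in Col-0 (5 peaks, 1300 bases), 5 in *ndx1-4* (5 peaks, 1485 bases) and 4 in both, with shares of 38.4% and 36.8%. The ratio of bases in *ndx1-4* to Col-0 ranged from 0.725 to 1.14 over the settings that gave one.

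No paired analysis was possible because only 1 list per genotype was used, and it carries no replicate number. Leaving out a replicate was likewise not possible. The depth of the libraries is unknown, and whether signal was present below the calling threshold at places called in 1 list only was not tested.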

Other observations

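Among the 33 related genes, 3 had a peak in their window in Col-0 only (9.09%, 95% Wilson interval 3.14 to 23.6%), against 3.99% of all protein-coding genes, and 1 in *ndx1-4* only (3.03%, 0.537 to 15.3%), against 2.23%. *RNH2A*, the catalytic subunit of RNase H2, had a Col-0 peak of 200 bases in coding sequence (score 78, with 23.2% of the Col-0 peaks scoring lower). *ALBA5* had a Col-0 peak of 580 bases over 197 bases of coding sequence and 383 bases of intron, with 84.8% of peaks scoring lower, and the nearest *ndx1-4* peak lay 2860 bases away. The gyrase gene *GYRA* had a Col-0 peak of 680 bases in its downstream flank, wholly in coding sequence of AT3G10680, with 94.6% of peaks scoring lower and the nearest *ndx1-4* peak 17600 bases away. Of all Col-0 peaks, 97.0% in the score decile of the *ALBA5* peak and 83.9% in that of the *GYRA* peak had an *ndx1-4* partner. The helicase gene *MAA3*, the *Arabidopsis* senataxin homologue, had an *ndx1-4* peak of 200 bases in an intron (score 65, with 6.02% of *ndx1-4* peaks scoring lower). Of the genes with a peak in both lists, 4 had a further peak with no partner. These lay in *RECQ4A* in Col-0 (280 bases, 271 of them coding sequence), and in *ndx1-4* in *GYRB2* (280 bases), in *THO2* (200 bases) and past the end of *TOP2* (200 bases, 928 bases from the gene). These are values of 1 list per genotype, and no difference between the genotypes was tested.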
